A study of Mus musculus with 8 samples.

Results

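The 10 tetraspanin genes Cd9, Cd37, Cd53, Cd63, Cd81, Cd82, Cd151, Tspan3, Tspan4 and Tspan14 were followed through WT and 3xGrk-/- bone marrow-derived dendritic cells (BMDCs), with and without lipopolysaccharide (LPS). They were taken as a named list, found by their Ensembl gene IDs, and are 10 of the 47937 genes in the count tables. All 10 had enough reads to be tested in every comparison. GRKs are kinases that phosphorylate activated G-protein coupled receptors and so switch their signaling off, and the study asked what their combined loss does to dendritic cells.

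RNA-seq counts of 8 BMDC libraries were analyzed, 2 for each of the 4 groups: unstimulated WT, unstimulated 3xGrk-/-, LPS-stimulated WT and LPS-stimulated 3xGrk-/-. The 3xGrk-/- cells, labeled Grk 3xKO, came from mice with Vav-iCre and the alleles Grk2 fl/fl, Grk3-/- and Grk6 fl/fl. Vav-iCre is active in early precursors of all blood cells, so Grk2 and Grk6 are deleted before the culture begins, and the Grk3 deletion is carried by the whole animal. WT controls lacked Cre and were matched for age and sex. Adult mice of more than 8 weeks were used, and bone marrow was cultured with 20 ng/ml GM-CSF for 8 days in every group. Stimulated cells received 20 ng/ml LPS, a bacterial cell wall component that matures dendritic cells, for 24 h. Such cultures hold dendritic cells and macrophages side by side, and the RNA was taken from the mixture, so that fewer cells of one type and less RNA per cell cannot be told apart.

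Tetraspanins are small membrane proteins that cross the membrane several times and gather integrins, immunoglobulin-superfamily proteins, proteases and signaling receptors into patches called tetraspanin-enriched microdomains. In myeloid cells they are known for roles in adhesion, cell fusion, the sorting of cargo into endosomes and exosomes, and the trafficking of MHC class II molecules. Cd9, Cd63 and Cd81 are widely used as exosome markers, Cd37 and Cd53 are found mainly on leukocytes, and Cd82 and Cd151 are known as regulators of integrin-dependent adhesion. Tspan14 belongs to the TspanC8 subgroup, whose members escort the sheddase ADAM10 to the cell surface.

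Without LPS, 7 of the 10 genes were higher in 3xGrk-/- than in WT BMDCs, 1 was lower and 2 did not pass the test, where 44.7% of all genes tested differed. With LPS, 9 were higher and 1 was lower, where 48.6% of all genes tested differed. Cd82 was the gene that was lower in both. Levels are given as CPM, a gene's counts relative to the total of its library, with TMM scaling over all 8 libraries. Differences and fold changes between the genotypes are 3xGrk-/- over WT on the log2 scale, with their standard error (SE). The differences and p-values come from the quasi-likelihood test of edgeR, with p adjusted by the Benjamini-Hochberg method over every gene tested. A gene was called at an adjusted p under 0.05. That test prints no SE, so the SE was derived as the size of the difference, fitted without a prior count, over the square root of the F value. Nothing states that the libraries of a group came from separate cultures or animals, and the study's methods speak of RNA isolated in technical triplicates, so the p-values measure only the spread between these libraries.

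The depth was 4713305 to 6933358 counts on genes per library. As a check of the labels, Grk2, Grk3 and Grk6 were each lower in 3xGrk-/- cells in both conditions. Over both conditions Grk2 was at 319 to 735 CPM in WT and 146 to 198 CPM in 3xGrk-/- libraries, and Grk6 at 83.2 to 101 and 32.5 to 36.9 CPM. Grk3 was at 337 to 339.9 CPM in WT and 262 to 267 CPM in 3xGrk-/- libraries without LPS, and at 443 to 459 and 334.5 to 342 CPM with LPS, and counts over the whole gene do not show which of its exons were read. The second LPS-stimulated 3xGrk-/- library stood apart in one transcript, Gm42418, with 149727 counts against 26853 in the first. Without that library 9 in place of 10 tetraspanin genes differed between the genotypes with LPS, as was so without the first LPS-stimulated 3xGrk-/- or the first LPS-stimulated WT library, each time through the loss of Cd37.

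Levels of cell type markers in the mixture differed between the groups. The summed level of 10 dendritic cell markers ranged from 13220 to 13250 CPM in unstimulated WT libraries and from 5935 to 6035 CPM in unstimulated 3xGrk-/- libraries, and with LPS from 9154 to 9794 and from 7457 to 7624 CPM. The 10 macrophage markers ranged without LPS from 1497 to 1510 CPM in WT and from 4559 to 4636 CPM in 3xGrk-/- libraries, and with LPS from 927 to 953 and from 9492 to 9495 CPM. Without LPS the dendritic cell sum was mostly H2-Aa, H2-Ab1 and H2-Eb1, the MHC class II genes. With LPS Ccr7 was its largest single gene, at 3668 and 3877 CPM in WT and 3076 and 2981 CPM in 3xGrk-/- libraries. Without LPS 8 dendritic cell markers were lower in 3xGrk-/- cells and 2 were higher, Flt3 (16.4 and 17.9 CPM in WT, 33.9 and 32.9 CPM in 3xGrk-/- libraries) and Ccr7 (1227 and 1215, 1449 and 1445 CPM). With LPS 8 of 9 tested were lower and Flt3 was higher. Over all genes tested 44.7% differed without LPS, 22.1% higher and 22.7% lower. With LPS 48.6% of all genes tested differed, 24.7% higher and 24% lower. Of the macrophage markers, 7 were higher and 3 lower in 3xGrk-/- cells without LPS, and all 10 were higher with LPS. The 3 lower were C1qa, C1qb and C1qc, with C1qb at 158 and 161.6 CPM in WT and 42.55 and 40.56 CPM in 3xGrk-/- libraries. Ctsd was the largest part of the 3xGrk-/- sums, at 2422 and 2382 CPM without and 4164 and 4088 CPM with LPS. With LPS Ctsl came next, at 2893 and 2916 CPM. The paper's flow cytometry of such cultures found a smaller share of dendritic cells and a larger share of macrophages in 3xGrk-/- than in WT, with and without LPS. The fall in dendritic cells with LPS did not reach significance in its test. The part of cell composition in the tetraspanin differences was not tested.

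The levels of markers listed for other cell types differed too, and whether such cells were present was not tested. The 5 eosinophil markers summed to between 894 and 965 CPM in the WT libraries and between 36.1 and 57.5 CPM in the 3xGrk-/- libraries. Prg2 (589 to 625 CPM) and Epx (276 to 323 CPM) gave most of the WT level. Without LPS Siglecf was the only gene of this list that did not pass the test (20.39 and 20.41 CPM in WT, 18.96 and 16.47 CPM in 3xGrk-/- libraries), and with LPS it was lower. The 5 megakaryocyte and platelet markers without LPS summed to 41.9 to 46.0 CPM in WT and 325.5 to 337 CPM in 3xGrk-/- libraries, and with LPS to 26.8 to 27.6 and 126 to 126.5 CPM. In this list Pf4 and Ppbp were higher in 3xGrk-/- cells and Itga2b was lower in both conditions (without LPS 23.4 and 26.0 CPM in WT, 7.17 and 6.07 CPM in 3xGrk-/- libraries). The defining genes Gp1ba and Gp9 were at 0 in every 3xGrk-/- library and at 0.309 CPM or less in the WT libraries. The 5 stromal markers stood at 4.79 to 8.87 CPM in LPS-stimulated WT and 131 to 141 CPM in LPS-stimulated 3xGrk-/- libraries, and at 2.80 CPM or less without LPS. Of the level in LPS-stimulated 3xGrk-/- libraries, Dcn alone gave 127 and 113 CPM, and each of the other 4 genes was at 5.67 CPM or less. The 8 neutrophil markers without LPS summed to 697 to 741 CPM in WT and 514 to 531 CPM in 3xGrk-/- libraries, and with LPS to 334.5 to 391 and 185 to 202 CPM. The 8 mast cell and basophil markers summed to between 71.7 and 102 CPM and the 5 erythroid markers to between 2.66 and 16.8 CPM over all groups, with Hba-a1 and Hba-a2 at 0. Mcpt8, Ms4a2 and Prss34 were lower in 3xGrk-/- cells in both conditions, and Gata2 was higher without LPS. Hbb-bt was higher in 3xGrk-/- cells without LPS (8.66 and 8.15 against 4.38 and 2.66 CPM in WT) and lower with LPS (5.26 and 4.86 against 13.4 and 16.7 CPM). T and NK cell markers reached at most 1.14 CPM.

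RefSeq upstream sequences of 3 genes are shown because these genes carry the contrasts described below: Tspan4, the gene with the largest fold, Tspan3, whose difference appeared only in the test with LPS, and Cd82, the gene that ran the other way. RefSeq gives 16 start sites for the 10 genes on GRCm38.p6, and all 10 genes were matched. Each sequence is the 250 bases before a start site on the gene's own strand, and capitals mark the E-box CACGTG, the one searched motif found in them. The windows of Tspan3 and of start site 2 of Tspan4 lie inside the GENCODE M21 gene bounds given below, so these start sites are internal to the annotated genes. The window of start site 1 of Tspan4 lies just before its gene bound, and that of Cd82 overlaps its gene bound.

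Tspan4, start site 1, + strand, chr7:141474986-141475235: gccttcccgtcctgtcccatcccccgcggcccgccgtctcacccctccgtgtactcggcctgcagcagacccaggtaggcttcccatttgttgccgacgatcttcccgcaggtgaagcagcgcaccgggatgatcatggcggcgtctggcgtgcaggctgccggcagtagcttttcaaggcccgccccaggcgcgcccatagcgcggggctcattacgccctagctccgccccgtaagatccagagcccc
Tspan4, start site 2, + strand, chr7:141476130-141476379: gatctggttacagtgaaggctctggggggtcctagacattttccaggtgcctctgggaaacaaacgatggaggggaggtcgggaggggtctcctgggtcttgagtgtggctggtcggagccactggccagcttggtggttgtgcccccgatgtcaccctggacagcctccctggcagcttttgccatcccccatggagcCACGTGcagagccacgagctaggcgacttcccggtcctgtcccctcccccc
Tspan3, - strand, chr9:56161071-56161320: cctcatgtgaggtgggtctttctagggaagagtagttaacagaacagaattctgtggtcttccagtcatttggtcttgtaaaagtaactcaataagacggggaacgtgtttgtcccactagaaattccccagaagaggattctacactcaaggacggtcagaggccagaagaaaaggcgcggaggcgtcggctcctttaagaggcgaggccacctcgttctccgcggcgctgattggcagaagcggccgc
Cd82, start site 1, - strand, chr2:93462951-93463200: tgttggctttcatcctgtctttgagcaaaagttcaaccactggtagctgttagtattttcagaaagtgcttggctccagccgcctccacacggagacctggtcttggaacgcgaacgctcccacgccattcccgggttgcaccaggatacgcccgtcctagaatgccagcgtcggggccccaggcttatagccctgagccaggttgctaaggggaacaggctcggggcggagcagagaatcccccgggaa

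Each of 6 motifs was searched on both strands of all 32851 RefSeq windows of this length, and no motif contains another. The NF-kB motif, GGG then any 2 bases then TTTCC, was in 1.41% of all windows and in 1 of the 16 tetraspanin windows, that of Cd9. CACGTG (E-box) was in 6.02% of all windows and in 2 tetraspanin windows, that of Cd37 and the one of Tspan4 shown. GAGGAAGT (PU.1) was in 2.44% of all windows and in 2 tetraspanin windows, that of Cd37 and another of Cd82. TGACGTCA (CRE, 1.55% of windows), TGACTCA (AP-1, 4.46%) and the ISRE, GAAA then any 2 bases then GAAA (2.98%), were in none of the 16.

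On GRCm38, with gene bounds from GENCODE M21, the genes lie on 7 chromosomes. Cd151 (chr7:141467392-141471473, + strand) and Tspan4 (chr7:141475240-141493427, + strand) are neighbors, and Cd81 (chr7:143052739-143067934, + strand) and Cd37 (chr7:45233632-45239115, - strand) share their chromosome. Cd9 is at chr6:125460266-125494791, Cd53 at chr3:106759921-106790149, Cd82 at chr2:93419111-93463140, Tspan3 at chr9:56131725-56165477 and Tspan14 at chr14:40906445-40966807, all on the - strand, and Cd63 is at chr10:128900989-128912822 on the + strand. Exons of Tspan4 share 292 bases with Chid1 on the opposite strand, a gene with up to 213 counts per library. The strand setting of the counting is not given in the sources used here, so reads from that stretch cannot be assigned with certainty. Cd63 and Cd9 have processed copies, Cd63-ps and Cd9-ps, with at most 45 and 4 counts.

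**Figure D1:**
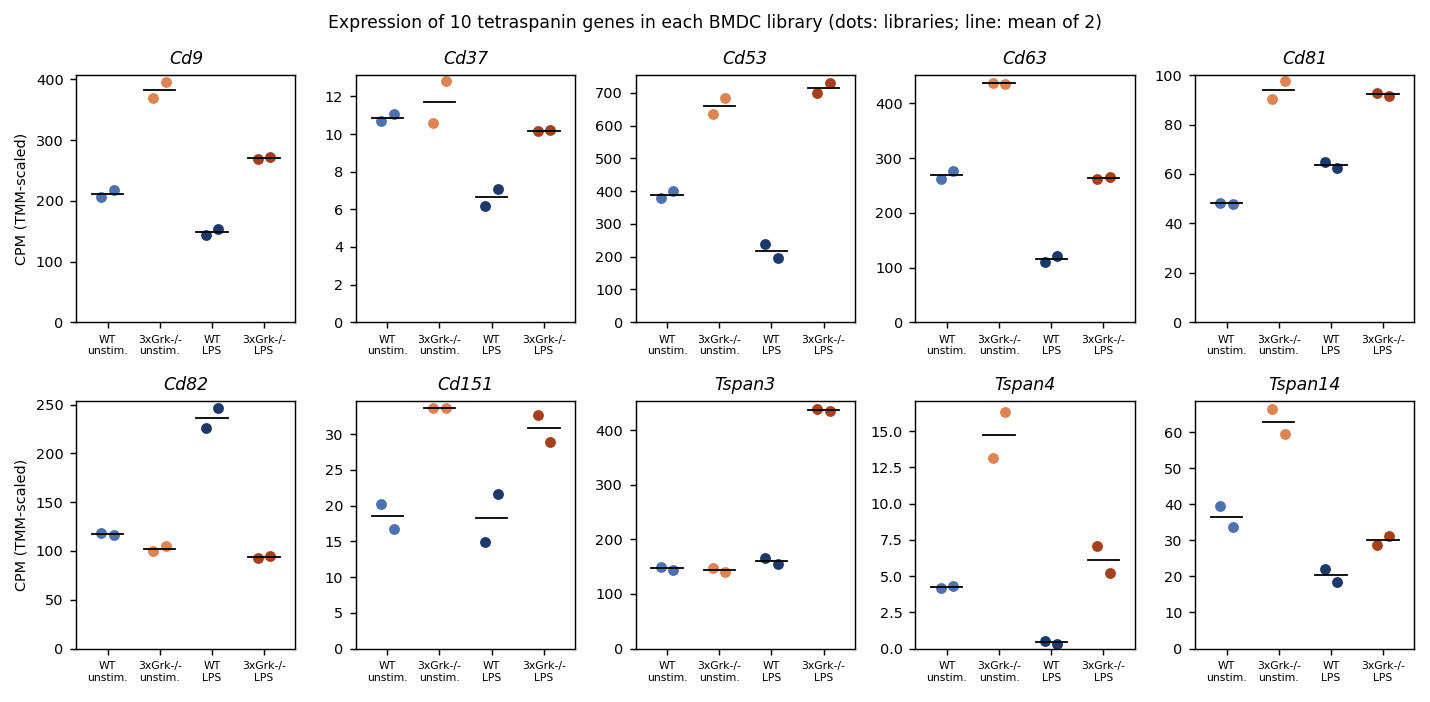
Each panel plots 1 gene, with the CPM of each of the 8 libraries as a dot on a linear axis from 0 and the mean of the 2 libraries of a group as a line. Cd9, Cd53, Cd63, Cd81, Cd151, Tspan4 and Tspan14 are higher in both 3xGrk-/- than in both WT libraries of each condition, Cd82 is high in LPS-stimulated WT cells, with 226 and 246 CPM, and Tspan3 is high in LPS-stimulated 3xGrk-/- cells, with 439 and 435.5 CPM.

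The exosome-associated members Cd9, Cd63 and Cd81 were higher in 3xGrk-/- cells in both conditions. Cd9, a partner of integrins and of the immunoglobulin-superfamily proteins IGSF8 and PTGFRN, was at 206 and 218 CPM in WT and 369.7 and 395.5 CPM in 3xGrk-/- libraries without LPS, and at 143 and 153 CPM in WT and 268 and 272 CPM in 3xGrk-/- libraries with LPS. Both 3xGrk-/- libraries lay above both WT libraries in each condition. Between the genotypes Cd9 differed by 0.85 (SE 0.0447, adjusted p = 1.80e-77) without and by 0.86 (SE 0.0652, adjusted p = 4.31e-10) with LPS on the log2 scale.

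Cd63, a tetraspanin of late endosomes and lysosomes, was at 262 and 276 CPM in WT and 436.4 and 436.3 CPM in 3xGrk-/- libraries without LPS, and at 110.5 and 121 CPM in WT and 261 and 266 CPM in 3xGrk-/- libraries with LPS. The stimulated 3xGrk-/- libraries thus stood at about the level of the unstimulated WT libraries. The genotypes differed by 0.69 (SE 0.0426, adjusted p = 8.51e-58) without and 1.18 (SE 0.0686, adjusted p = 5.50e-12) with LPS on the log2 scale. Cd81 was at 48.2 and 47.9 CPM in WT and 90.3 and 97.8 CPM in 3xGrk-/- libraries without LPS, and at 64.8 and 62.4 CPM in WT and 92.9 and 91.6 CPM in 3xGrk-/- libraries with LPS. All 4 libraries of 3xGrk-/- cells lay above all 4 WT libraries. The log2 difference between the genotypes was 0.96 (SE 0.0781, adjusted p = 1.49e-33) without and 0.54 (SE 0.0847, adjusted p = 1.98e-05) with LPS.

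Of the leukocyte members, Cd53 differed in both conditions, and Cd37 differed with LPS only in some of the fits. Cd53 was at 378 and 401 CPM in WT and 635 and 684 CPM in 3xGrk-/- libraries without LPS, and at 240.1 and 195 CPM in WT and 699 and 729 CPM in 3xGrk-/- libraries with LPS. The stimulated WT libraries were the lowest and the stimulated 3xGrk-/- libraries the highest of the 8. On the log2 scale the genotypes differed by 0.76 (SE 0.0391, adjusted p = 4.70e-81) without and 1.72 (SE 0.0782, adjusted p = 9.69e-14) with LPS.

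Cd37 was at 10.7 and 11.04 CPM in WT and 10.6 and 12.8 CPM in 3xGrk-/- libraries without LPS, and at 6.16 and 7.10 CPM in WT and 10.2 and 10.2 CPM in 3xGrk-/- libraries with LPS, from 34 to 79 counts. The genotypes overlapped without LPS, where the log2 difference was 0.10 (SE 0.179, adjusted p = 0.705). With LPS both 3xGrk-/- libraries lay above both WT libraries, with a log2 difference of 0.61 (SE 0.215, adjusted p = 0.0232). This call was lost with DESeq2 (adjusted p = 0.196), and without the first LPS-stimulated WT (0.0866), the first LPS-stimulated 3xGrk-/- (0.0651) or the second LPS-stimulated 3xGrk-/- library (0.0775).

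The adhesion regulators Cd82 and Cd151 went in opposite directions. Cd82 was at 119 and 117 CPM in WT and 99.7 and 105 CPM in 3xGrk-/- libraries without LPS, and at 226 and 246 CPM in WT and 92.7 and 94.5 CPM in 3xGrk-/- libraries with LPS. The stimulated WT libraries were set apart from the 6 others, which lay within a narrow range. With LPS the log2 difference between the genotypes was -1.33 (SE 0.0718, adjusted p = 1.60e-12). Without LPS it was -0.20 (SE 0.0617, adjusted p = 0.00306), a call that was lost with DESeq2 (adjusted p = 0.135) and without the first unstimulated 3xGrk-/- library (adjusted p = 0.0985). Cd151, a partner of laminin-binding integrins, was at 20.2 and 16.8 CPM in WT and 33.7 and 33.6 CPM in 3xGrk-/- libraries without LPS, and at 14.9 and 21.6 CPM in WT and 32.7 and 29.0 CPM in 3xGrk-/- libraries with LPS. Its 3xGrk-/- libraries lay above its WT libraries throughout. Cd151 differed by 0.88 (SE 0.125, adjusted p = 1.39e-11) without and 0.74 (SE 0.152, adjusted p = 3.89e-04) with LPS on the log2 scale.

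Among the Tspan members, Tspan4 gave the largest fold changes of the list. Tspan4, known as a component of migrasomes, vesicles that migrating cells leave on their retraction fibers, was at 4.19 and 4.33 CPM in WT and 13.1 and 16.3 CPM in 3xGrk-/- libraries without LPS, and at 0.543 and 0.309 CPM in WT and 7.08 and 5.18 CPM in 3xGrk-/- libraries with LPS. Both stimulated WT libraries were near the limit of detection, with 3 and 2 counts, against 39 and 32 counts in the stimulated 3xGrk-/- libraries. Without LPS the log2 difference between the genotypes was 1.77 (SE 0.211, adjusted p = 5.25e-16). With LPS it was 3.80 (SE 0.471, adjusted p = 6.25e-07), a fitted value that depends on the prior count. The ratio of the summed counts was 14.6, with an exact 95% interval of 5.96 to 46.3 that covers counting error only.

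Tspan3 was at 149 and 145 CPM in WT and 148 and 141 CPM in 3xGrk-/- libraries without LPS, and at 166 and 156 CPM in WT and 439 and 435.5 CPM in 3xGrk-/- libraries with LPS. The stimulated 3xGrk-/- libraries stood far above the other 6, and the unstimulated genotypes overlapped. Between the genotypes Tspan3 differed by -0.02 (SE 0.0551, adjusted p = 0.772) without and 1.44 (SE 0.0635, adjusted p = 5.55e-14) with LPS on the log2 scale. Tspan14 was at 39.4 and 33.7 CPM in WT and 66.3 and 59.4 CPM in 3xGrk-/- libraries without LPS, and at 22.1 and 18.5 CPM in WT and 28.7 and 31.2 CPM in 3xGrk-/- libraries with LPS. It was lower in the stimulated than in the unstimulated libraries of each genotype, and higher in 3xGrk-/- than in WT libraries of each condition. The genotypes differed by 0.80 (SE 0.0908, adjusted p = 1.41e-17) without and 0.57 (SE 0.135, adjusted p = 0.00141) with LPS on the log2 scale.

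**Figure D2:**
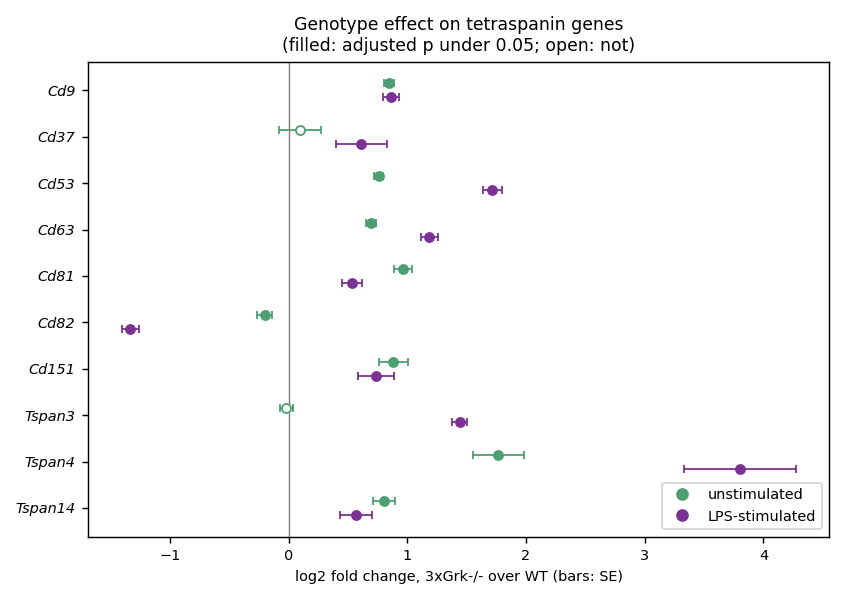
The log2 fold change of 3xGrk-/- over WT is plotted for each of the 10 genes, without LPS in green and with LPS in purple, with bars for the SE and filled symbols for an adjusted p under 0.05. Most symbols lie to the right of 0, with Tspan4 at 1.77 and 3.80, Cd82 lies to the left, and Tspan3 moves from -0.02 to 1.44.

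Read against all genes, 8 of the 10 tetraspanin genes differed between the genotypes without LPS, where 44.7% of the 12000 genes tested did, 22.1% higher and 22.7% lower. With LPS all 10 differed, where 48.6% of the 11830 genes tested did, 24.7% higher and 24% lower. The median log2 fold change of the 10 genes was 0.78 without and 0.80 with LPS, against -0.0017 and -0.0066 over all genes tested. The libraries of the genotypes did not overlap for 8 of the 10 genes without and for 10 with LPS, which held for 69.2% and 72.6% of all genes tested. The smallest two-sided p that an exact permutation test of 2 against 2 libraries can give is 0.333, so no such test was used. As a guard against libraries that are technical repeats, a biological coefficient of variation of 0.4 was imposed on every gene. None of the 10 genes then differed without LPS, where 448 of the 12000 genes tested did (3.73%). With LPS only Tspan4 did (adjusted p = 1.40e-04, edgeR's likelihood ratio test), where 782 of the 11830 genes tested did (6.61%). At an unadjusted p under 0.05 the same test gave 1 of the 10 genes without and 5 with LPS, and 1054 (8.78%) and 1496 (12.6%) of all genes tested. Tspan4 had 3 and 2 counts in the LPS-stimulated WT libraries, so it passed the count filter only through its 3xGrk-/- libraries. It was not tested with LPS where 10 counts were required in every library.

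To compare the genes with each other, CPM was divided by the exon length in kb. Summed over the 10 genes, this level was 507 and 525 in unstimulated WT, 809 and 852 in unstimulated 3xGrk-/-, 390.3 and 377 in LPS-stimulated WT and 798 and 817 CPM per kb in LPS-stimulated 3xGrk-/- libraries. The 3xGrk-/- libraries of both conditions shared one range, above all WT libraries, and the stimulated lay below the unstimulated WT libraries. Cd53 made up 42.8% and 43.8% of the sum in unstimulated WT, 45.0% and 46.1% in unstimulated 3xGrk-/-, 35.3% and 29.7% in LPS-stimulated WT and 50.3% and 51.2% in LPS-stimulated 3xGrk-/- libraries. Cd82 took 19.2% and 21.7% in LPS-stimulated WT libraries and between 3.85% and 7.79% in the other 6. Tspan3 took 12.9% and 12.5% in LPS-stimulated 3xGrk-/- libraries, 9.98% and 9.66% in LPS-stimulated WT and between 3.87% and 6.87% in unstimulated libraries.

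**Figure D3:**
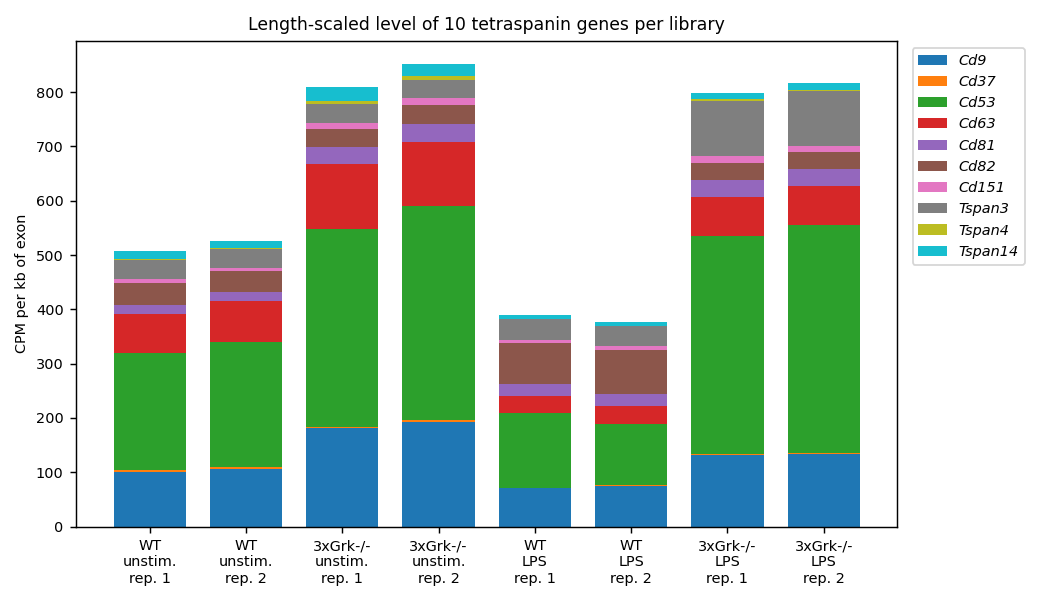
Each bar is 1 library, stacked from the CPM per kb of exon of the 10 genes on a linear axis from 0. The stacks of the 3xGrk-/- libraries reach 798 to 852 CPM per kb and those of the WT libraries 377 to 525, and the Cd82 share is widest in the LPS-stimulated WT libraries.

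In unstimulated WT cells the order by mean CPM per kb was Cd53 (223.5 ± 9.50, SD, n = 2), Cd9 (104 ± 4.29), Cd63 (73.1 ± 2.61), Cd82 (39.2 ± 0.504), Tspan3 (34.4 ± 0.664), Cd81 (16.7 ± 0.0656), Tspan14 (13.8 ± 1.54), Cd151 (6.75 ± 0.884), Cd37 (3.08 ± 0.0746) and Tspan4 (1.96 ± 0.0457). No neighbors in this order overlapped between libraries. In unstimulated 3xGrk-/- cells the first 3 genes kept their places, with Cd53 at 378.5, Cd9 at 187 and Cd63 at 118.5 CPM per kb, and Cd82, Tspan3 and Cd81, at 34.0, 33.8 and 32.7, were not separated by their libraries. In LPS-stimulated WT cells Cd82 came second, at 78.5 CPM per kb, between Cd53 at 125 and Cd9 at 72.6. In LPS-stimulated 3xGrk-/- cells Cd53 stood at 409.9, Cd9 at 132 and Tspan3 at 102 CPM per kb, and the libraries of Tspan14 and Cd151 (11.3 and 11.2) and of Cd37 and Tspan4 (2.89 and 2.81) overlapped.

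The response to LPS asks how maturation moved the same genes within each genotype, from 1 fit of all 8 libraries. In WT cells 2 of the 10 genes were higher after LPS, 6 lower and 2 did not pass the test, where 60.3% of the 12541 genes tested changed, 29.5% higher and 30.8% lower. In 3xGrk-/- cells 1 was higher, 4 lower and 5 did not pass, where 55.4% changed, 28% higher and 27.4% lower. The median log2 fold change of the 10 genes was -0.61 in WT and -0.16 in 3xGrk-/- cells, against -0.015 and -0.0072 over all genes. Scaling by library size alone shifted the median of all genes to -0.23 in both responses, and with it Cd37 (-0.41), Cd81 (-0.24), Cd82 (-0.34) and Cd151 (-0.35) also passed as lower in 3xGrk-/- cells.

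Cd82 rose in WT cells by 1.005 on the log2 scale (SE 0.0624, adjusted p = 4.47e-14, edgeR's quasi-likelihood test), whereas in 3xGrk-/- cells the value was -0.13 (SE 0.0697, adjusted p = 0.127). Cd81 also rose in WT cells, by 0.40 (SE 0.0833, adjusted p = 1.45e-04), a call lost when libraries were scaled by size alone (0.19, adjusted p = 0.057), and its value in 3xGrk-/- cells was -0.03 (adjusted p = 0.781). Tspan3 was the gene that rose in 3xGrk-/- cells, by 1.60 (SE 0.0559, adjusted p = 8.38e-20), with 0.13 (SE 0.0592, adjusted p = 0.0562) in WT cells. The WT value passed the test without the second LPS-stimulated WT library (0.19, adjusted p = 0.0098).

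Genes that fell in both genotypes were Cd9, Cd63, Tspan4 and Tspan14. Cd9 fell by 0.52 in WT and by 0.50 in 3xGrk-/- cells on the log2 scale (adjusted p = 1.98e-08 and 9.78e-09), and Cd63 fell by 1.22 and by 0.73 (adjusted p = 1.99e-16 and 2.89e-12). Tspan14 fell by 0.84 and by 1.07 (adjusted p = 1.59e-06 and 1.51e-09). For Tspan4 the summed counts went from 53 to 5 in WT cells, a ratio of unstimulated over stimulated of 10.3 (exact 95% interval 4.13 to 32.9), and from 182 to 71 in 3xGrk-/- cells, a ratio of 2.40 (1.82 to 3.21). These intervals cover counting error only and do not test the difference between the genotypes.

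Cd53 and Cd37 fell in WT cells, by 0.84 and by 0.71 on the log2 scale (adjusted p = 1.18e-11 and 0.00287). Their values in 3xGrk-/- cells were 0.12 (adjusted p = 0.124) and -0.19 (adjusted p = 0.369). The Cd53 value in 3xGrk-/- cells passed the test when either LPS-stimulated WT library was left out, with its size still at 0.12, and the cause was not tested. With library size alone the Cd53 value turned to -0.10. Cd151 stood at 0.01 (adjusted p = 0.946) in WT and -0.13 (adjusted p = 0.392) in 3xGrk-/- cells. The libraries of the conditions did not overlap for 9 of the 10 genes in each genotype, which held for 78.3% of all genes tested in WT and 77.6% in 3xGrk-/- cells.

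**Figure D4:**
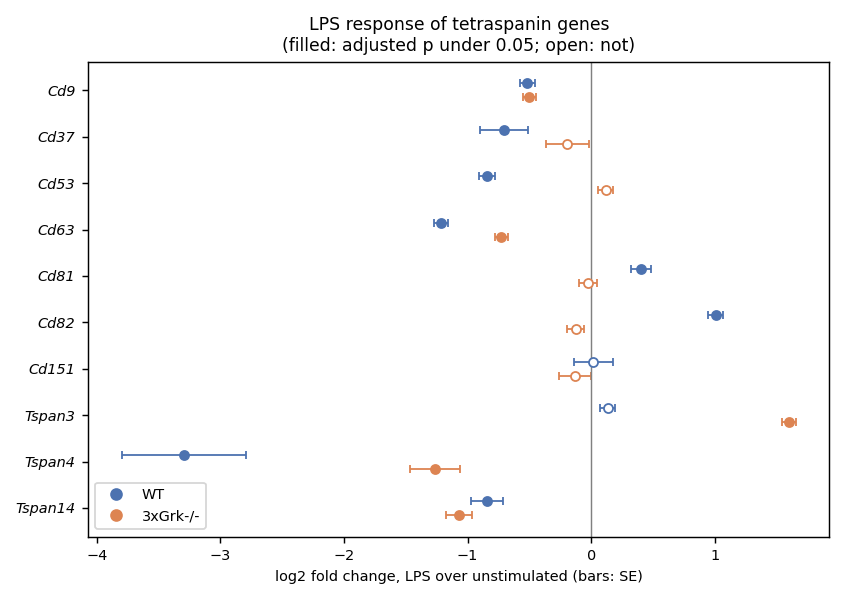
The log2 fold change of LPS-stimulated over unstimulated cells is plotted for each of the 10 genes, WT in blue and 3xGrk-/- in orange, with bars for the SE and filled symbols for an adjusted p under 0.05. Cd82 lies at 1.005 in WT and at -0.13 in 3xGrk-/- cells, and Tspan3 at 0.13 and 1.60.

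The interaction tests whether the genotype difference itself changed with LPS. It passed for 6 of the 10 genes, where 32.5% of the 12541 genes tested passed, with 4 higher and 2 lower (16.5% and 16% of all genes). The log2 difference of differences was 1.47 for Tspan3 (SE 0.0814, adjusted p = 3.09e-14), 0.96 for Cd53 (SE 0.0925, adjusted p = 2.34e-09), 0.49 for Cd63 (SE 0.0804, adjusted p = 1.87e-05), -0.43 for Cd81 (SE 0.110, adjusted p = 0.00304) and -1.13 for Cd82 (SE 0.0935, adjusted p = 1.17e-10), all from edgeR's quasi-likelihood test. For Tspan4 it was 2.03 (SE 0.604, adjusted p = 0.00806), a call lost with DESeq2 (adjusted p = 0.0505) and without the second LPS-stimulated WT library (adjusted p = 0.0758). The values were 0.02 for Cd9 (adjusted p = 0.915), 0.51 for Cd37 (0.148), -0.15 for Cd151 (0.633) and -0.23 for Tspan14 (0.342). The median over the 10 genes was 0.25, against 0.0057 over all genes.

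Of 21 other tetraspanins, 10 could be tested without LPS. Of these, 5 were higher in 3xGrk-/- cells (Tspan5, Tspan13, Tspan17, Tspan31 and Tspan32), 4 were lower (Tspan2, Tspan7, Tspan18 and Tspan33) and Rom1 did not pass, where 44.7% of all genes tested differed, 22.1% higher and 22.7% lower. Their median was 0.05, against -0.0017 over all genes. With LPS 8 could be tested, of which Tspan5 and Tspan31 were higher, Tspan2 and Tspan33 lower and 4 did not pass, where 48.6% of all genes tested differed. Their median was 0.23, against -0.0066 over all genes. The largest fall without LPS was that of Tspan7, from 7.62 and 7.41 CPM in WT to 1.20 and 0.867 CPM in 3xGrk-/- libraries (log2 fold change -2.82, SE 0.346, adjusted p = 1.91e-15). Tspan7 had 40 and 53 counts in these WT and 8 and 5 in these 3xGrk-/- libraries, so it passed the count filter only through the WT libraries. Tspan2 was lower in both conditions, with 37.0 and 36.8 against 11.5 and 12.5 CPM without LPS and 17.4 and 14.8 against 4.54 and 5.99 CPM with LPS.

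The TspanC8 subgroup holds 6 genes, of which Tspan5, Tspan14, Tspan17 and Tspan33 were tested. Without LPS, Tspan5, Tspan14 and Tspan17 were higher and Tspan33 was lower in 3xGrk-/- cells. With LPS, Tspan5 and Tspan14 were higher, Tspan33 was lower by -0.96 (log2, SE 0.100, adjusted p = 6.49e-08) and Tspan17 stood at 0.41 (adjusted p = 0.0619). Their partner protease Adam10 was higher by 0.18 without (SE 0.0570, adjusted p = 0.00589) and 0.28 with LPS (SE 0.0846, adjusted p = 0.00844).

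Of 17 known tetraspanin partners and small-vesicle genes, all tested, 10 were higher and 2 lower in 3xGrk-/- cells without LPS, where 44.7% of all genes tested differed, and the median was 0.26, against -0.0017 over all genes. Under LPS the counts were 9 and 4, where 48.6% of all genes tested differed, and the median was 0.295, against -0.0066. Ptgfrn, a direct partner of CD9 and CD81, was at 3.81 and 3.21 CPM in WT and 13.9 and 13.2 CPM in 3xGrk-/- libraries without LPS, and at 0.362 and 0.309 CPM in WT and 5.63 and 5.99 CPM in 3xGrk-/- libraries with LPS. Both stimulated WT libraries had 2 counts, so the fitted fold change with LPS depends on the prior count. Igsf8, another such partner, was at 68.4 and 63.1 CPM in WT and 62.4 and 60.1 CPM in 3xGrk-/- libraries without LPS, and at 11.1 and 13.4 CPM in WT and 48.4 and 46.5 CPM in 3xGrk-/- libraries with LPS. It was low only in the stimulated WT libraries, and the genotypes differed by 1.94 with LPS (SE 0.132, adjusted p = 7.32e-11) and by -0.09 without (adjusted p = 0.364).

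Clec7a, the beta-glucan receptor dectin-1, which associates with CD37 and CD63, was higher in 3xGrk-/- cells by 1.43 without (SE 0.0410, adjusted p = 3.45e-257) and 2.19 with LPS (SE 0.0696, adjusted p = 2.22e-16). Sdcbp, which encodes syntenin, an adaptor that binds CD63 and takes part in exosome formation, was higher by 0.56 (SE 0.0452, adjusted p = 2.54e-34) and 1.47 (SE 0.0680, adjusted p = 1.19e-13). Of the ESCRT-linked vesicle genes, Pdcd6ip was higher without LPS by 0.26 (adjusted p = 1.12e-07), with 0.12 with LPS (adjusted p = 0.104), and Tsg101 was lower with LPS by -0.38 (adjusted p = 7.70e-04), with -0.06 without (adjusted p = 0.529). Of the integrin subunits, Itga6, which pairs with CD151, was lower in both conditions (-1.13 and -0.98, adjusted p = 1.66e-33 and 4.32e-07), and Itgb1 was higher by 0.13 without (adjusted p = 0.00165) and lower with LPS (-0.68, adjusted p = 1.09e-09). Neither of the other 2 subunits passed the test, with Itga3 at 0.77 without and 0.295 with LPS (adjusted p = 0.127 and 0.599) and Itga4 at 0.024 and -0.098 (adjusted p = 0.725 and 0.301). Hbegf, a membrane-anchored growth factor that binds CD9, was at 2.48 and 1.96 CPM in WT and 8.36 and 6.41 CPM in 3xGrk-/- libraries without LPS, and at 1.81 and 1.70 CPM in WT and 11.98 and 11.98 CPM in 3xGrk-/- libraries with LPS. It was higher in 3xGrk-/- cells by 1.77 without (SE 0.290, adjusted p = 5.99e-09) and 2.76 with LPS (SE 0.279, adjusted p = 3.94e-08).

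**Figure D5:**
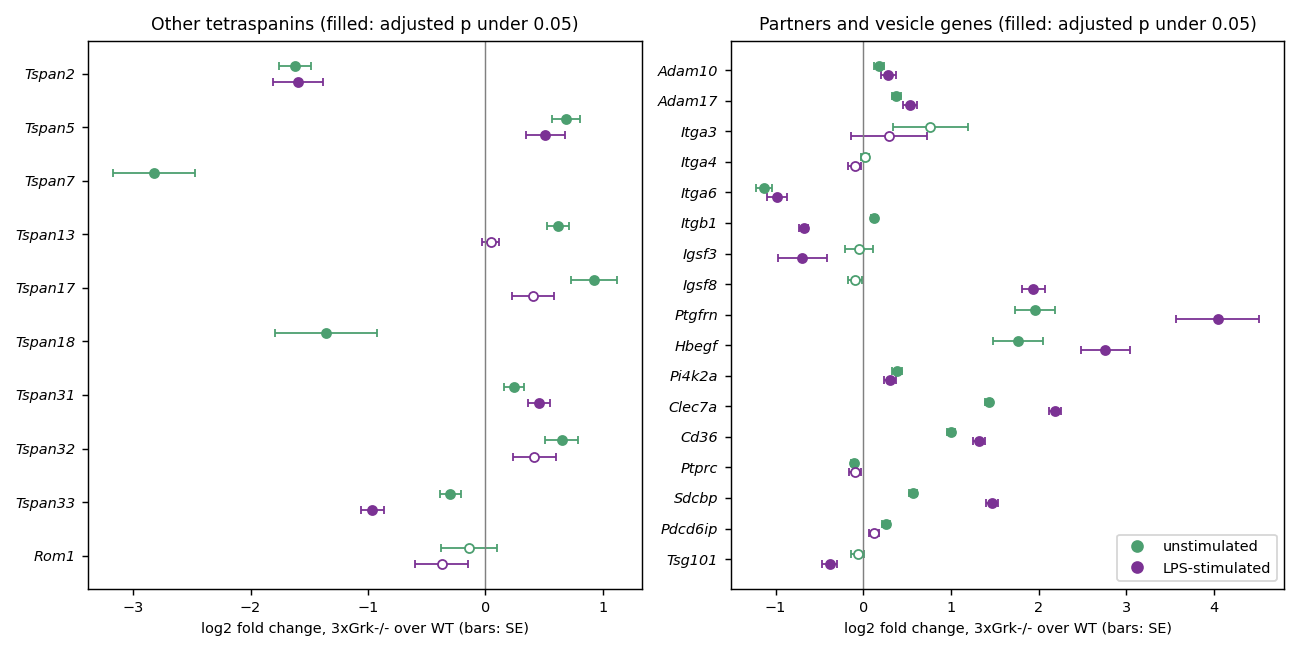
The log2 fold change of 3xGrk-/- over WT is plotted for the other tetraspanins tested (left) and for 17 partners and vesicle genes (right), without LPS in green and with LPS in purple, with bars for the SE and filled symbols for an adjusted p under 0.05. Tspan7 lies lowest on the left, at -2.82, and Ptgfrn highest on the right, at 1.96 and 4.04.

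The genes most like each tetraspanin were found by the root mean square (RMS) difference of centered log2 CPM over the 8 libraries, among 1492 genes whose log2 CPM averaged 5 or more and whose group means spanned 1 or more. The closest were Anxa1 to Cd63 (0.0790), Pik3cg and Rpain to Cd82 (0.0754 and 0.0843), Slc15a3 and Lamp2 to Tspan3 (0.0827 and 0.0883) and Capg to Cd81 (0.0864). Cd53 was most like B430306N03Rik and Vcan (0.105 and 0.106), Cd37 like Rasa3 and Arrb1 (0.135 and 0.138), Tspan14 like Lpcat2 and S100a6 (0.132 and 0.136), Cd9 like Pgam1 and Atp2a2 (0.144 and 0.146) and Cd151 like Fxyd5 and Iqsec1 (0.163 and 0.169). The second genes for Cd63 and Cd81 were Pgd (0.111) and Pls3 (0.134). Tspan4 had no close match in this set, with Csf1r at 0.377. Genes at its own low level were not compared, and it had 3 and 2 counts in the LPS-stimulated WT libraries, so this says little about its pattern.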

How the data were processed

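RNA of GM-CSF cultured BMDCs was sequenced from TruSeq stranded mRNA libraries, and 8 libraries were analyzed, grouped by genotype and stimulation from the sample labels. The authors ran snakePipes 2.1.0, aligned reads to mm10 (GRCm38) with STAR 2.7.3a and deposited raw counts per gene from featureCounts 2.0.0, in 1 table for unstimulated and 1 for LPS-stimulated cells. Annotation release and strand setting are not given in the sources used here, nor whether both tables were sequenced together. Depth was 4713305 to 6933358 counts per library.

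Gene names and exon lengths came from GENCODE M21, which matched 47224 of 47937 gene IDs, with 0.0847% of counts on unmatched IDs. Promoter sequences came from RefSeq tables. edgeR 4.0.16 in R 4.3.3 was used with TMM scaling, filterByExpr, glmQLFit and glmQLFTest, with p adjusted by Benjamini-Hochberg over every gene tested and a threshold of 0.05. Genotypes were compared within each table, and the LPS responses and the interaction came from one fit of 8 libraries, so all these comparisons share libraries. The fits were also run on simulated counts, and no result given here rests on them. A library at or under 3 counts was taken to be at the limit of detection.

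By the rule for named genes, all 10 tetraspanins, the targeted genes and the 2 genes most like each tetraspanin are named, and any tested gene of 2 lists (other tetraspanins, partners and vesicle genes) could be. Cell type marker lists are given mainly as sums. Of the most alike genes 1 is not reported here, nor is 1 marker list. Members and lists were chosen with earlier results of these data known. Alternatives were DESeq2 1.42.0, limma-voom (limma 3.58.1), scaling by RLE or by library size alone, leaving low counts unfiltered, requiring 10 counts per library throughout, the 20 most abundant genes left out, a biological coefficient of variation of 0.4, a log2 fold change of at least 1, the replicate number as a block, the fit of all 8 libraries and leaving out each library.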

Additional observations from a re-analysis of the deposited data

Results flagged for a closer look

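The genotype difference changed with LPS for 6 of the 10 tetraspanins, 3 of 10 other tetraspanins tested and 7 of 17 partners and vesicle genes, where it did for 32.5% of all genes tested, by edgeR's quasi-likelihood test of the interaction with p adjusted by Benjamini-Hochberg over 12541 genes. Positive values mean that 3xGrk-/- over WT was higher with LPS than without.

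Of the 10 tetraspanins these were Tspan4 at 2.03, Tspan3 at 1.47, Cd53 at 0.96, Cd63 at 0.489, Cd81 at -0.428 and Cd82 at -1.13 on the log2 scale. The shapes differed: Cd53 moved in WT cells while its value in 3xGrk-/- cells did not pass the test, Tspan3 moved in 3xGrk-/- cells while its value in WT cells did not pass, and Cd63 and Tspan4 fell in both genotypes. For Tspan4, which had 2 and 3 counts in the LPS-stimulated WT libraries, the interaction lost its call with DESeq2 (2.09, adjusted p = 0.0505) and without the second LPS-stimulated WT library (1.66, adjusted p = 0.0758).

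Of the other tetraspanins they were Tspan7 at 2.55 (SE 0.812, adjusted p = 0.0155), Tspan13 at -0.571 (SE 0.115, adjusted p = 2.54e-04) and Tspan33 at -0.662 (SE 0.138, adjusted p = 3.89e-04). Tspan7 rested on 3 to 8 counts in every library other than the unstimulated WT libraries, which had 40 and 53. Tspan13 rose with LPS in both genotypes, from 34.9 and 36.9 to 158 and 144 CPM in WT and from 57.8 and 52.5 to 160.2 and 151.5 CPM in 3xGrk-/- libraries. Tspan33 rose in WT cells by 0.32 (adjusted p = 0.00361) and fell by 0.35 in 3xGrk-/- cells (adjusted p = 0.00641).

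Of the partners and vesicle genes they were Ptgfrn at 2.09 (SE 0.621, adjusted p = 0.00779), Igsf8 at 2.04 (SE 0.154, adjusted p = 1.89e-11), Sdcbp at 0.909 (SE 0.0836, adjusted p = 9.71e-10), Clec7a at 0.76 (SE 0.0801, adjusted p = 1.22e-08), Cd36, a scavenger receptor, at 0.322 (SE 0.0860, adjusted p = 0.00441), Tsg101 at -0.314 (SE 0.110, adjusted p = 0.0277) and Itgb1 at -0.805 (SE 0.0636, adjusted p = 4.55e-11). Sdcbp fell by 0.25 in WT cells (adjusted p = 0.00108) and rose by 0.66 in 3xGrk-/- cells (adjusted p = 5.88e-11). Igsf8 fell by 2.41 in WT and by 0.37 in 3xGrk-/- cells (adjusted p = 2.06e-16 and 0.00122). The Ptgfrn value rests on 2 counts in each LPS-stimulated WT library.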

How the results depend on the processing

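Over all alternatives, 746 of 836 values of single tetraspanin genes kept their direction and their side of the threshold, 66 lost their call, 7 gained one and 17 changed sign, none of the last with an adjusted p under 0.05. Without LPS, with LPS, in the LPS response of WT, in that of 3xGrk-/- and in the interaction, in that order, 8, 10, 8, 5 and 6 of the 10 genes and 5369, 5754, 7561, 6945 and 4070 of all genes were called. A biological coefficient of variation of 0.4 left 0, 1, 1, 0 and 0 of the 10 genes and 448, 782, 1110, 850 and 72 of all genes, with 1, 5, 2, 2 and 1 of the 10 genes and 1054, 1496, 2136, 1830 and 561 of all genes at an unadjusted p under 0.05 in edgeR's likelihood ratio test. A log2 fold change of at least 1 left 1, 5, 3, 3 and 3, and 1444, 1984, 2700, 2373 and 1375. DESeq2 called 3086 of all genes without LPS and 2643 in the interaction. Library size alone called 9 of the 10 genes and 7445 of all genes in the response of 3xGrk-/- cells, and lowered the share of calls that were higher from 49.3% to 35.8% without LPS, from 49% to 31.1% in the response of WT and from 50.5% to 30.2% in that of 3xGrk-/- cells. Leaving out 1 library gave 7 to 8, 9 to 10, 8 to 9, 5 to 6 and 5 to 6 of the 10 genes, and 4253 to 4788, 4460 to 5712, 6417 to 7601, 5844 to 7410 and 3328 to 4199 of all genes.

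With the replicate number as a block, 8, 10, 8, 5 and 6 of the 10 genes and 5292, 5654, 7438, 6793 and 3884 of all genes were called. Same-numbered libraries did not deviate together (correlations between -0.0183 and 0.0327), so the numbers were not taken to pair them.

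Signs changed for values near 0, and the cause was not tested. In the response of WT, Cd151 was -0.00104 with DESeq2, -0.201 with library size alone, -0.00086 with no filter, -0.0191 with at least 10 counts in every library and -0.0185 with the coefficient of 0.4, and Tspan3 was -0.0829 with library size alone. In that of 3xGrk-/- cells, Cd53 was -0.103 with library size alone. With 1 library left out, Cd37 ranged from -0.0367 to 0.239 and Tspan3 from -0.0552 to 0.0114 without LPS, Cd151 from -0.293 to 0.248 in the response of WT, Cd81 from -0.0809 to 0.0305 in that of 3xGrk-/- cells, and in the interaction Cd9 from -0.0322 to 0.0761 and Cd151 from -0.378 to 0.163. By depth, Tspan4 in LPS-stimulated WT cells, at 2 and 3 counts, was the most limited of the 10 genes. It was the gene left with the coefficient of 0.4. Where 10 counts were required in every library, it was not tested in any comparison that includes these libraries.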
